A study of Mus musculus with 2 samples.

Results

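CD8 T cells were examined in 2 single-cell RNA libraries of leukocytes from *Ptgs*-/- melanomas, in which they made up 66 of 9798 cells. *Ptgs* genes encode the COX enzymes, which make prostaglandins. Leukocytes were sorted as live CD45+ cells on day 4 after C57BL/6 mice aged 8 weeks had been injected with *Braf*-mutant melanoma cells. The labels give untreated mice as hosts of the control library. Hosts of the NK cell-depleted library received 200 µg anti-NK1.1 and 30 µg anti-asialo GM1 on day 0 and again on day 2, and both antibodies remove natural killer (NK) cells. Tumors were pooled within a group, so each group was 1 library without replicates, and cells of the parental melanoma line had been added to both sorted samples. The genotype label of both samples names wildtype tumor cells, whereas the titles name a knockout, a conflict that touches both groups alike. Antibody against asialo GM1 is known to bind some activated T cells as well, and a direct action of either antibody on CD8 T cells cannot be told apart from the absence of NK cells in this design.

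CD8 T cells recognize peptides on MHC class I through an αβ T cell receptor and the co-receptor CD8. Naive and central memory CD8 T cells circulate through lymph nodes with the homing receptor CCR7 and express transcription factors such as LEF1, TCF1 (*Tcf7*) and SATB1. After activation they shut these genes down, gain genes of motility and adhesion, and acquire cytotoxic granules, chemokines such as CCL5 and the cytokine IFN-γ. In tumors they are the main cells that kill melanoma cells after recognition of antigen.

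A cell counted as a CD8 T cell when it had at least 1 unique molecular identifier (UMI, a counted transcript molecule) of *Cd8a* or *Cd8b1* and at least 1 UMI of *Cd3d*, *Cd3e*, *Cd3g*, *Trac* or *Trbc2*. It also had 0 UMIs of *Cd4*, *Foxp3*, *Csf1r*, *Ncr1* and *Xcr1*. The cells were thus chosen by UMIs of these genes, so their values describe the choice and are not a result. *Cd8b1*, the β chain of CD8 that conventional CD8 T cells carry, was seen in 36 of 42 control and 23 of 24 NK cell-depleted cells. *Cd8a* was seen in 27 and 13 cells, and both chains in 21 and 12. *Cd8a* without *Cd8b1*, a pattern also known from some dendritic cells and NK cells, was seen in 6 control cells and 1 NK cell-depleted cell. *Trac*, the constant gene of the T cell receptor α chain, was seen in 22 and 20 cells and *Cd3e* in 24 and 17. Of genes that the rule did not use, constant genes of γδ T cell receptors had UMIs in 1 cell of each library, and *Klrb1c*, which encodes NK1.1, in 0 of 42 and 0 of 24 cells. At 3 counts of the total, this allows shares of cells with a UMI of up to 7.14% and 12.5%. The whole list of 12 γδ T cell markers, which includes *Il17a*, summed to 38 UMIs in 5 control cells (at most 14 in a cell) and 1 UMI in 1 NK cell-depleted cell. The list of 10 markers of CD4 and regulatory T cells summed to 55 UMIs in 18 control cells (at most 23 in a cell, with 7 the next highest) and 24 UMIs in 11 NK cell-depleted cells, with *Cd4* and *Foxp3* at 0 by the rule. The part of these cells in the results was not tested. At the edge of the rule, 9 control and 7 NK cell-depleted members rested on a single UMI of the CD8 genes, and 14 control cells and 0 NK cell-depleted cells that had a CD8 UMI lacked all 5 T cell genes. Another 5 and 3 cells had both kinds of UMI but also a UMI of a barred gene.

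The control library held 5292 cells within the limits on UMIs, genes and mitochondrial share, and the NK cell-depleted library 4506. CD8 T cells had a median of 2132 UMIs (856 to 14614) and 1107 genes in the control library, and of 2791.5 UMIs (1326 to 4611) and 1209 genes in the NK cell-depleted library. Summed, they held 116107 and 68000 UMIs. Mitochondrial genes took a median of 5.72% of UMIs in control and 7.58% in NK cell-depleted members, above the 3.01% and 3.55% of all cells. The limit of 10% lay close: the highest members stood at 8.98% and 9.71%, and the first cells beyond it at 10.3% and 10.4%. No barcode shared between the libraries belonged to a member, and 0 members were called doublets (droplets with more than 1 cell) by Scrublet.

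Some members also held RNA of other cell types, more of it in the control library. Markers of dendritic cells reached 199 UMIs in the deepest control cell (14614 UMIs), with a next highest value of 28, and at most 3 in the NK cell-depleted members. Of that list, 7 of 12 genes had a UMI in control members and 4 of 12 in NK cell-depleted members, and *Clec9a* and *Siglech* were at 0 in both. Markers of monocytes and macrophages ranged from 0 to 36 UMIs per cell (13 of 14 genes) in the control and from 0 to 4 (5 of 14 genes) in the NK cell-depleted library, and B cell markers from 0 to 26 (7 of 8 genes) and from 0 to 4 (2 of 8 genes). Neutrophil and melanoma markers had at most 2 UMIs in any member. Gene counts of CD8 T cells between the libraries were therefore repeated in a reduced set, chosen after the data were seen, of 34 control and 23 NK cell-depleted cells. It left out members above 7000 UMIs and those with 10 or more UMIs over the myeloid, dendritic and B cell lists. Members with 2 or more UMIs over 8 abundant genes of other types were left out too. The 8 control cells left out held 35.4% of the control UMIs, and the 1 NK cell-depleted cell 6.68%.

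NK cell genes needed the same check, since 277 NK cells were present in the control library and 0 in the NK cell-depleted one. Of 13 NK cell markers, *Ncr1* (a rule gene), *Klrb1c*, *Klra4*, *Klra7*, *Klra8*, *Klra9* and *Klri2* were at 0 in all 42 control members, whereas 76.9% of control NK cells had a *Klrb1c* UMI and 50.9% a *Klri2* UMI. The list summed to 0 to 14 UMIs per control member and 0 to 3 per NK cell-depleted member. *Klre1*, seen in 84.5% of NK cells, was seen in 2 control members. *Tyrobp* had 16 UMIs in 5 control members and *Fcer1g* 14 in 6, both genes that myeloid cells also express, against 0 in NK cell-depleted members. Of the 62 UMIs of the list in control members, 49 were in 11 of the 15 cells with *Ccl5* and 13 in 7 of the 27 without it.

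CD8 T cells were 0.794% of control cells (95% exact binomial interval 0.573% to 1.07%) and 0.533% of NK cell-depleted cells (0.342% to 0.791%). The ratio was 1.49 (0.882 to 2.57), so a difference was not detectable at this number of cells. All intervals cover counting error only. Among T cells the shares were 13.0% of 324 and 11.1% of 217 cells, a ratio of 1.17 (0.694 to 2.02). With the mitochondrial limit at 20%, a setting chosen after the data were seen, 46 and 33 cells gave a ratio of 1.19 (0.744 to 1.92).

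The libraries differed in the state of their CD8 T cells. In the control library, CD8 T cells held transcripts of *Ccl5*, *S100a4*, *S100a6* and other genes that were at or near 0 in the NK cell-depleted library, while genes of naive T cells were higher in the NK cell-depleted members. Counts were summed over the members of a library and scaled to the same total (CPM, the UMIs of a gene per 1e+06 UMIs of the sum). A gene with at least 20 UMIs was counted as higher or lower when the CPM differed at least 1.5-fold and the exact 95% interval of the ratio left out 1. Of 1480 genes, 197 (13.3%) were counted as higher in control and 100 (6.76%) as lower. Neither group had a second library, so no test could be made, and these counts compare 2 pools of cells, not conditions. The split depended on the scaling. With median-of-ratios scaling, which shifted the median log2 ratio of all genes from 0.08 to 0.38, 307 genes were higher and 39 lower. In the reduced set the counts were 96 (9.15%) and 60 (5.72%) of 1049 genes. These shares of all genes are the background for the list counts of CD8 T cells below.

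**Figure D1:**
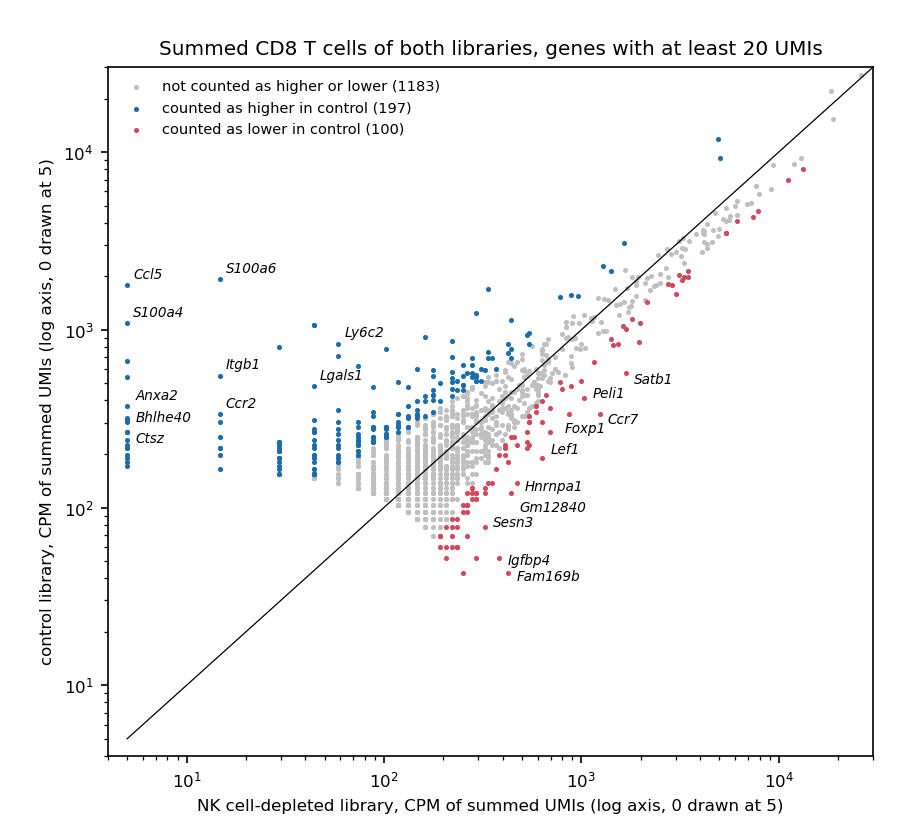
Each point is 1 of 1480 genes with at least 20 UMIs, by its CPM summed over the CD8 T cells of the NK cell-depleted library (x, log axis) and of the control library (y, log axis). A value of 0 is drawn at 5, and the line marks equal CPM. *Ccl5* and *S100a4* lie far above the line at 0 in the NK cell-depleted library, and *Satb1*, *Ccr7* and *Lef1* lie below it.

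Naive genes were lower in the control library. *Satb1*, a chromatin organizer of developing and naive T cells, had 66 UMIs in 21 of 42 control cells and 114 UMIs in 24 of 24 NK cell-depleted cells, or 568 and 1676 CPM, a ratio of 0.339 (0.247 to 0.463). *Ccr7*, the lymph node homing receptor, had 39 UMIs in 12 control cells and 84 UMIs in 18 NK cell-depleted cells (ratio 0.272, 0.181 to 0.402). *Lef1* was seen in 13 and 19 cells (22 and 43 UMIs, ratio 0.30, 0.171 to 0.512). All NK cell-depleted members thus had *Satb1*, and each of these 3 genes was in at least 18 of 24 of them, but in no more than 21 of 42 control members. *Tcf7*, which encodes TCF1, was less far apart, with 27 of 42 and 22 of 24 cells and a ratio of 0.547 (0.373 to 0.80).

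Over the list of 25 naive and central memory genes, 11 of 20 counted genes were lower in control and 1 was higher, with a median log2 ratio of -0.67 over 21 genes, beside 0.08 over all genes. *Foxp1*, which keeps naive T cells quiescent, had 39 and 59 UMIs (ratio 0.387, 0.252 to 0.590). *Igfbp4*, a marker of naive and recently emigrated T cells, had 6 and 26 UMIs (0.135, 0.0455 to 0.336) and *Nsg2* 6 and 20 (0.176, 0.0577 to 0.454). *Klf2*, which drives *S1pr1*, had 103 and 96 UMIs (0.628, 0.471 to 0.839). *S1pr1* itself, the receptor that lets T cells leave tissue, had 50 and 41 UMIs and an interval that included 1 (0.714, 0.463 to 1.11), as did *Il7r*, the survival receptor of naive and memory cells (79 and 34 UMIs, 1.36, 0.90 to 2.10). The 1 gene counted as higher was *Ly6c2*, which marks memory and effector CD8 T cells (97 UMIs in 18 control cells and 4 in 1 NK cell-depleted cell, 14.2-fold, 5.37 to 53.2). In the reduced set 8 genes of the list were lower (among them *Satb1*, *Ccr7*, *Foxp1*, *Lef1*, *Actn1*, *Igfbp4* and *Nsg2*) and 2 higher (*Ly6c2* and *Il7r*), with a median of -0.46.

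Among the 10 genes whose interval lay farthest below 1, over all genes, were also *Fam169b* (5 and 29 UMIs, 0.101, 0.0305 to 0.264), *Sesn3* (9 and 22 UMIs, 0.240, 0.0971 to 0.541) and *Peli1*, a ubiquitin ligase that restrains T cell activation (48 and 70 UMIs, 0.402, 0.272 to 0.588). *Hnrnpa1* (16 and 32 UMIs, 0.293, 0.150 to 0.550) and *Gm12840* (14 and 30 UMIs, 0.273, 0.134 to 0.532) are an RNA-binding protein gene and a gene model, and *Hnrnpa1* has many processed copies that counting can confuse with it. Each of the 10 was lower in the reduced set too.

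*Ccl5* stood farthest apart among genes higher in control. This chemokine, which memory and effector CD8 T cells release on activation, had 207 UMIs in 15 of 42 control members and 0 in 24 NK cell-depleted members. The deepest control cell (14614 UMIs), which held 199 UMIs of dendritic cell markers, had 37 of the 207. Against a floor of 3 counts for the NK cell-depleted sum it was at least 40.4-fold higher, and the exact interval of the ratio began at 32.6. Its share of cells was 35.7% (21.6% to 52.0%) against 0 of 24, which at 3 counts allows a share of cells with a UMI of up to 12.5%. In Csf1r-positive cells of the same libraries, which serve as background, *Ccl5* was at 35.5 and 5.43 CPM. At that control level the 42 members would have held 4.12 *Ccl5* UMIs. CD4 T cells had 19 UMIs in 9 of 59 control cells and 12 in 4 of 63 NK cell-depleted cells (2.02-fold, 0.929 to 4.55). γδ T cells had 129 UMIs in 8 of 42 control cells (1179 CPM) and 0 in 16 NK cell-depleted cells. Control NK cells had *Ccl5* in 93.1% of cells.

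Among members, other genes of cytotoxic T cells split into those present in both libraries and those seen in the control library alone. *Nkg7*, a granule protein, had 55 and 19 UMIs (1.70-fold, 0.991 to 3.02), *Klrd1*, the CD94 receptor chain, 24 and 14 (1.0, 0.499 to 2.10), and *Ctsw*, a protease of cytotoxic cells, 20 and 10 (1.17, 0.523 to 2.80). *Prf1* (perforin) was seen in 5 and 4 cells and *Cst7* in 4 and 4. No difference was detectable for these genes over all members at this depth, but *Nkg7* was counted as higher in the reduced set. *Gzma* had 22 UMIs in 5 control cells, *Gzmb* 15 in 4, *Ifng* 9 in 4, *Klrk1* (NKG2D) 25 in 11 and *Ccl4* 15 in 6, all against 0 UMIs in the NK cell-depleted members. The control cell of 7837 UMIs held 13 of the *Gzma* and 12 of the *Gzmb* UMIs, and another held 5 of the *Ifng* UMIs. In Csf1r-positive cells, *Gzma* had 155 and 0 UMIs and *Gzmb* 26 and 0 in the control and NK cell-depleted library. *Gzma* stood at 8.69 CPM there in control, against 189 CPM in control members. *Ccl4* stood at 666 and 878 CPM in Csf1r-positive cells, against 129 CPM in control members. Whether UMIs of members came from other cells was not tested. *Gzma* was at least 4.29-fold and *Klrk1* at least 4.88-fold higher against the floor (exact intervals from 3.21 and 3.68), while *Gzmb* and *Ifng* had too few UMIs to be counted. *Il2rb*, a receptor chain for IL-2 and IL-15, had 31 UMIs in 17 cells and 3 in 3 cells (6.05-fold, 1.89 to 30.9), and *Id2*, a factor of effector cells, 53 and 12 (2.59-fold, 1.36 to 5.32).

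Of the 30 listed effector genes, 5 of 9 counted genes were higher in control and 0 lower, beside 13.3% and 6.76% of all genes. The median log2 ratio over 14 genes was 3.14, but 7 of them were at 0 in 1 library. With those genes set at their bound it was 1.44, and in the reduced set it was 1.06, with 4 of 7 genes higher (*Ccl5*, *Nkg7*, *Id2* and *Il2rb*), while *Gzma* and *Klrk1*, with 8 and 15 UMIs against 0, were under the minimum of 20 there. Without the *Ccl5*-positive cells it was 0.33. In CD4 T cells the list had a median of 0.07, in Csf1r-positive cells of 0.24 and in γδ T cells of 0.52, with 2 of 7 counted genes higher in the last.

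Further genes farthest above a ratio of 1, most of them in no list, were the following. *S100a6*, a calcium-binding protein, had 224 UMIs in 26 control cells and 1 UMI in 1 NK cell-depleted cell, a ratio of 131 (23.3 to 5205). *S100a4* had 126 UMIs in 19 control cells and 0 (at least 24.6-fold higher, exact interval from 19.7). The deepest control cell, which is not in the reduced set, held 84 of the *S100a6* and 63 of the *S100a4* UMIs. *Itgb1*, the β1 integrin, had 64 UMIs in 20 cells and 1 UMI (37.5, 6.49 to 1503), *Ccr2*, a receptor for inflammatory chemokines, 39 in 14 cells and 1 (22.8, 3.87 to 925), and *Lgals1* (galectin-1) 56 in 18 cells and 3 in 2 cells (10.9, 3.55 to 54.6). After thinning, *Lgals1* was in 4 of 40 and 2 of 24 cells (10% and 8.33%), with a log2 ratio of 0.85. *Bhlhe40*, a transcription factor of cytokine-producing T cells, had 37 UMIs in 15 cells and 0 (at least 7.22-fold higher, exact interval from 5.59). *Anxa2* (43 and 0 UMIs) and *Ctsz* (35 and 0 UMIs) kept 8 and 3 UMIs in the reduced set, below the minimum, so these values rested on the cells left out. Of the 10 genes whose interval lay farthest above 1, the other 8 were higher there too. Among them were *S100a6* with 73 and 1 UMIs and *S100a4* with 35 and 0 (at least 9.87-fold higher).

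Myeloid cells make much *S100a6* and *S100a4* as well, and 84.2% and 82.1% of Csf1r-positive cells of the control and NK cell-depleted library had an *S100a6* UMI after thinning to 1000 UMIs per cell. The same thinning left *S100a6* in 20 of 40 control members and 0 of 24 NK cell-depleted members. Csf1r-positive cells of the control and NK cell-depleted library stood at 2761 and 2325 CPM of *S100a6*, and CD8 T cells at 1929 and 14.7 CPM. Whether *S100a6* UMIs of control members came from other cells was not tested. CD4 T cells had *S100a6* in 39 of 59 and 28 of 63 cells (1.54-fold, 1.25 to 1.90) and *S100a4* in 36 and 28 (1.23-fold, 0.955 to 1.57). Whether the ratios of CD8 and CD4 T cells differ was not tested.

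Most control cells with *Ccl5* also had *S100a4* or *S100a6*, as did 13 of the 27 without *Ccl5*. Naive genes were seen more often in cells without *Ccl5*. A UMI of *Ccr7* or *Lef1* was found in 18 of 42 control members (42.9%, 27.7% to 59.0%) and in 22 of 24 NK cell-depleted members (91.7%, 73.0% to 99.0%), and a UMI of *S100a4* or *S100a6* in 27 of 42 and 1 of 24. Of the 15 control cells with *Ccl5*, 2 had *Ccr7* or *Lef1*, 3 had *Satb1*, 14 had *S100a4* or *S100a6*, and 13 had another cytotoxic gene (*Gzma*, *Gzmb*, *Gzmk*, *Ifng*, *Prf1* or *Nkg7*). Of the 27 control cells without *Ccl5*, 16 had *Ccr7* or *Lef1*, 18 *Satb1* and 13 *S100a4* or *S100a6*. Cells with *Ccl5* had 856 to 14614 UMIs (median 2392) and those without 951 to 5190 (median 2115). The deepest of the 15 was the cell with 199 UMIs of dendritic cell markers. *Trac* was seen in 6 of the 15 and in 16 of the 27. In CD4 T cells *Ccr7* or *Lef1* was seen in 25 of 59 and 40 of 63 cells.

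**Figure D2:**
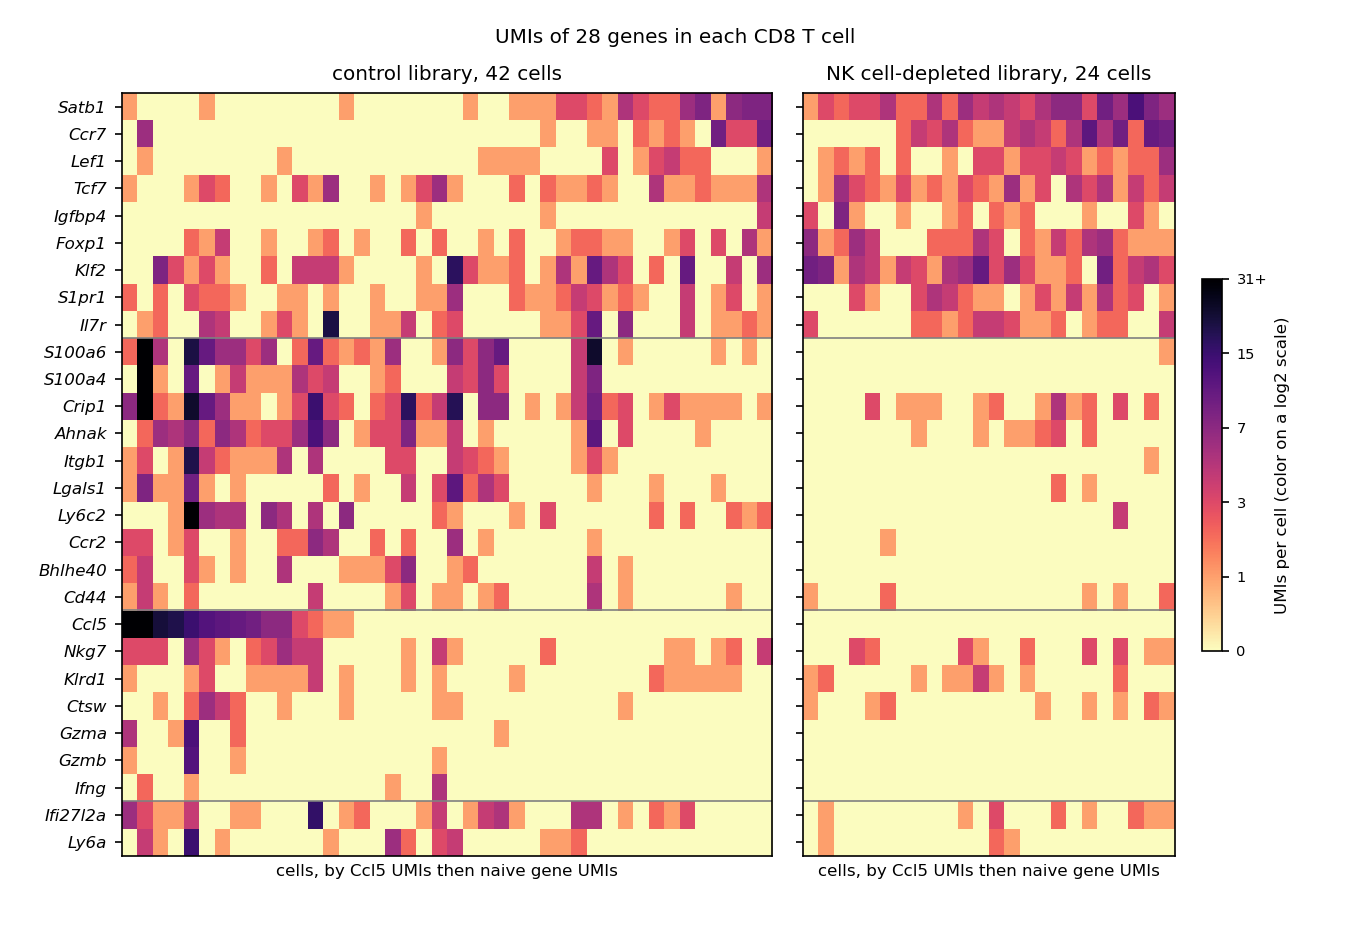
UMIs of 28 genes (rows) in each of 42 control and 24 NK cell-depleted CD8 T cells (columns), with color on a log2 scale and cells ordered by *Ccl5* UMIs, then by UMIs of *Satb1*, *Ccr7* and *Lef1*. Grey lines part 4 blocks of genes, which begin with *Satb1*, *S100a6*, *Ccl5* and *Ifi27l2a*. The *S100a6* block is filled for many control cells and nearly empty in the NK cell-depleted library, and *Satb1* is present in every NK cell-depleted cell.

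Because shares depend on depth, every cell was thinned to 1000 UMIs, which left 40 control and 24 NK cell-depleted members. *Satb1* was then seen in 37.5% (22.7% to 54.2%) and 91.7% (73.0% to 99.0%) of cells, beside 0.719% and 0.476% of Csf1r-positive cells, whose median depths before thinning were 5599 and 5893 UMIs. Thinned shares of *Ccr7* were 12.5% (4.19% to 26.8%) and 58.3% (36.6% to 77.9%), with background of 0.651% and 0.330%. For both genes, the intervals of the libraries did not meet. Those of *Lef1* (15% and 41.7%) did. *Ccl5* was seen in 30.0% (16.6% to 46.5%) and 0 of 24 cells, with background of 1.20% and 0.330%. *Cd69*, an early activation marker that also holds T cells in tissue, was seen in 50% (33.8% to 66.2%) and 12.5% (2.66% to 32.4%), against unthinned shares of 66.7% and 33.3% and background of 3.39% and 3.96%. Thinned shares of *Nkg7* (25.0% and 16.7%) and *Klrd1* (17.5% and 16.7%) lay within each other's intervals.

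**Figure D3:**
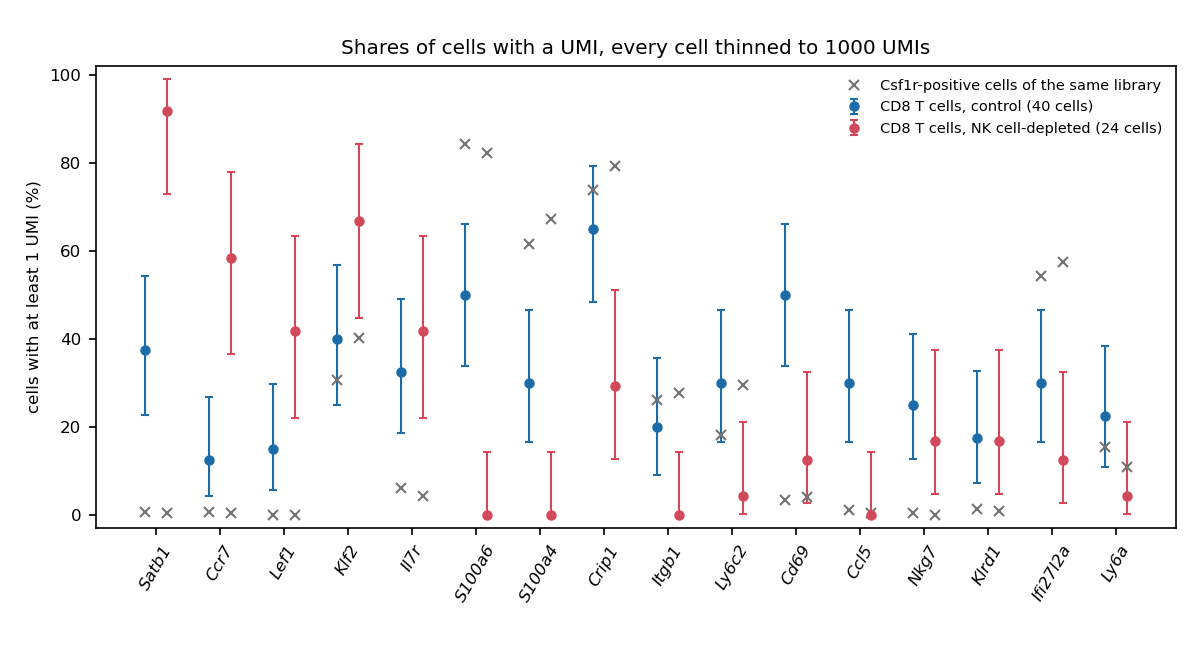
Percent of cells with at least 1 UMI of each gene after thinning to 1000 UMIs per cell, in 40 control and 24 NK cell-depleted CD8 T cells, with exact binomial 95% intervals. Crosses mark Csf1r-positive cells of the same library. *Satb1* and *Ccr7* are higher in the NK cell-depleted library, *S100a6*, *Cd69* and *Ccl5* in the control library, and *Nkg7* and *Klrd1* overlap.

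Interferon-stimulated genes were higher in control, with a large part in few cells. Of the 66 genes of the type I interferon list, 9 of 15 counted genes were higher and 0 lower, beside 13.3% and 6.76% of all genes. The median log2 ratio over 42 genes was 0.99. *Ifi27l2a* had 69 UMIs in 22 cells and 12 in 8 cells (3.37-fold, 1.81 to 6.83), *Ly6a* (Sca-1) 41 in 12 and 4 in 3 (6.00-fold, 2.17 to 23.1), *Ifi203* 55 in 25 and 9 in 8 (3.58-fold, 1.75 to 8.24), and *Ly6e* 87 in 30 and 23 in 12 (2.22-fold, 1.39 to 3.68). *Rsad2* (viperin) had 25 UMIs in 8 control cells and 0 (at least 4.88-fold higher, exact interval from 3.68), and *Isg15* 17 UMIs in 4 cells and 0. A single control cell, the one of 7837 UMIs, held 236 of the 1071 control UMIs of the list. In the reduced set the median was 0.50, with 4 of 11 counted genes higher (*Ifi27l2a*, *Ly6a*, *Ly6e* and *Ifi203*), and without *Ccl5*-positive cells it was 0.35. CD4 T cells had a median of 0.45, with 3 of 27 counted genes higher beside 4.1% of all genes, and Csf1r-positive cells one of -0.09. In γδ T cells it was 0.75, with 4 of 13 counted genes higher beside 78 of 1397 over all genes.

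For the genes of this list counted as higher, promoter windows are shown where those used from the reference table (RefSeq, GRCm38.p6) held the interferon motif. The motif searched was GAAA, 2 bases of any kind and GAAA again, on either strand, the core of the interferon-stimulated response element, in windows from 250 bases before to 50 after a gene's start. It was found for 25 of 50 matched genes of the list (50%) and for 1079 of 27025 genes in all (3.99%). Of the 9 higher genes, 5 had a window and 3 had the motif before the start. Capitals mark the motif or its reverse complement in the 250 bases before the start, written on the gene's strand. *Ifi203* (chr1:173942493-173942742, minus strand) has it 35 bases before the start, *Rsad2* (chr12:26456453-26456702, minus strand) 120 bases and *Trim30a* (chr7:104465194-104465443, minus strand) 36 bases. Another window of *Ifi203* (chr1:173942673-173942922) and of *Trim30a* (chr7:104446126-104446375) held no motif before the start. A match describes these letters and shows no binding.
Ifi203: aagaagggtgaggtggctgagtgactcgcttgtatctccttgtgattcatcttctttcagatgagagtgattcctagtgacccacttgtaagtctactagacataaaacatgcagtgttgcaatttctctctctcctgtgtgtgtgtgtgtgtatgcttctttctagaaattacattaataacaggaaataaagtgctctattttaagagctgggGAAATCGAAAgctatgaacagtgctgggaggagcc
Rsad2: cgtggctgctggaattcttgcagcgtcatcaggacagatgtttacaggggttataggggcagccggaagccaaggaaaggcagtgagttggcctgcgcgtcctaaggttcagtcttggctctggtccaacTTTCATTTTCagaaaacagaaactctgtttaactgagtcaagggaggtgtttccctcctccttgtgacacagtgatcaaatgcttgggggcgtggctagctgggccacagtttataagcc
Trim30a: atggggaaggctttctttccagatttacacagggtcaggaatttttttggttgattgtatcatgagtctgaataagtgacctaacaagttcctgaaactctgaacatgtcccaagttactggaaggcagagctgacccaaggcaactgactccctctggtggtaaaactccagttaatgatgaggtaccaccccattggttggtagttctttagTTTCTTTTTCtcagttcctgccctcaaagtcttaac

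The IFN-γ list gave a weaker picture. Its median was 0.70 over 33 genes, with 7 of 25 counted genes higher, but 5 of these (*H2-Aa*, *H2-Ab1*, *H2-Eb1*, *Cd74* and *Cxcl10*) are MHC class II genes, their chaperone and a chemokine that dendritic cells and macrophages make. *Cd74* had 123 UMIs in 6 control cells and 3 in 3 NK cell-depleted cells, and 94 of them were in the deepest cell. In the reduced set the median was 0.31 and 1 of 12 genes was counted as higher, the class I gene *H2-Q7* (65 and 28 UMIs). That is near the 9.15% of all genes counted as higher there. Of 19 counted genes of MHC class I presentation 2 were higher, *H2-Q7* and *Calr*, and 0 lower (median 0.56). Their share was no larger than that of all genes, of which 13.3% were higher and 6.76% lower. Genes that all cells use were close to equal, with *B2m* at 332 and 185 UMIs (1.05-fold, 0.875 to 1.27) and *H2-K1* at 336 and 221 (0.89-fold, 0.749 to 1.06).

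Activation and homing genes were higher in control in part. Of 10 counted genes of early activation and costimulation, 5 were higher and 0 lower (median 0.86), among them *Cd69* (63 and 20 UMIs, 1.84-fold, 1.10 to 3.22), the costimulatory receptor *Icos* (57 and 17, 1.96-fold, 1.13 to 3.60) and *Egr1* (32 and 4, 4.69-fold, 1.66 to 18.2). In the reduced set 4 of 9 were higher, beside 9.15% of all genes (13.3% in all members). *Cd28* (69 and 44 UMIs, 0.918, 0.620 to 1.37) and *Junb* (208 and 128 UMIs, 0.952, 0.760 to 1.20) were nearly equal. Of 18 counted homing genes, 6 were higher and 3 lower, *Klf2* and *Ccr7* among the latter. *Cxcr6*, the receptor for CXCL16 on effector and resident T cells (38 UMIs in 18 cells and 6 in 4 cells, 3.71-fold, 1.56 to 10.7), was higher. *Cxcr3*, the receptor for CXCL9 and CXCL10, was seen in 6 control cells and 0 NK cell-depleted cells. Of 11 counted genes of cytokine receptors and their signaling, 4 were higher and 1, *Il6st*, lower (median 0.36). *Il18r1* (28 and 4 UMIs, 4.10-fold, 1.43 to 16.1) and *Ifngr1* (49 and 15, 1.91-fold, 1.06 to 3.67) were higher, and *Ifnar1* (18 and 12, 0.878, 0.40 to 2.00) showed no detectable difference.

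Some cell cycle and energy genes were higher in control, as were 13.3% of all genes (9.15% in the reduced set). Of 9 counted cell cycle genes 7 were higher, with a median of 2.07 over 14 genes that became 1.81 with genes at 0 set at their bound, 0.58 with thinned cells and 1.16 in the reduced set, where 4 were higher and 1 lower of 5. *Mki67*, which marks dividing cells, had 36 UMIs in 7 control cells and 0 (27 and 0 in the reduced set), and *Hmgb2* 145 and 20 (4.25-fold, 2.65 to 7.16). A large part of the cell cycle UMIs was in few control cells. Of 634 such UMIs, the cells of 7837, 14614 and 3779 UMIs held 219, 118 and 107. The cell of 3779 UMIs is in the reduced set. It held 107 of the 236 control cell cycle UMIs there and 23 of the 27 *Mki67* UMIs. The median control member had 3.5 cell cycle UMIs and the median NK cell-depleted member 4.5. As shares of a cell's UMIs, the medians were 0.171% and 0.150%. Of 38 counted genes of oxidative phosphorylation encoded in the nucleus, 14 were higher and 0 lower (median 0.78, and 0.55 in the reduced set with 4 of 21 higher), and of 11 counted genes of glycolysis and hypoxia 5 (median 0.91 and 0.36), among them *Pgk1* (46 and 10 UMIs) and *Hif1a* (27 and 5 UMIs).

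Inhibitory receptors had few UMIs in both libraries. The list of inhibitory receptors and dysfunction summed to 90 and 37 UMIs. Of its 2 counted genes, 1 was higher in control and 0 lower, in all members (median -0.17) and in the reduced set (median -0.02). *Pdcd1* (PD-1) and *Havcr2* (TIM-3) were at 0 in all members, *Tigit* was in 1 control cell and *Lag3* in 4, and *Ctla4* had 17 and 11 UMIs (0.905, 0.40 to 2.14) and *Tox* 9 and 7. *Ptger4*, the prostaglandin E2 receptor that restrains T cells, had 9 UMIs in 6 control cells and 8 in 5 NK cell-depleted cells. Of 4 counted genes of prostaglandin response, 1 was lower, the phosphodiesterase *Pde4b* (13 and 19 UMIs, 0.401, 0.182 to 0.855), and not in the reduced set. Of 19 counted genes of T cell receptor signaling 3 were lower (*Prkcq* and *Dgka* among them) and 0 higher, with a median of 0.03. Of 9 counted genes of apoptosis, 1 was lower, *Bcl2l11* (median 0.23). Of 26 genes of the early stress response to tissue handling, 9 were higher and 1, *Btg1*, lower (median 0.40, and 0.31 with 2 higher and 1 lower of 23 in the reduced set). Of 19 counted genes of the T cell receptor complex and T cell identity, among them genes of the rule, 2 were higher (*Themis* and *Thy1*) and 1 lower, with a median of -0.34. Beside these counts, 13.3% of all genes were higher and 6.76% lower, and 9.15% and 5.72% in the reduced set.

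The same lists were set beside CD4 T cells (59 control and 63 NK cell-depleted cells) and Csf1r-positive cells (2941 and 2749). Naive genes were lower in control CD4 T cells as well, with 10 of 20 counted genes lower, 1 higher and a median of -0.77. There *Satb1* had a ratio of 0.377 (0.276 to 0.507) and *Ccr7* one of 0.584 (0.389 to 0.863), and over all 2680 counted genes 110 (4.1%) were higher and 100 (3.73%) lower. Activation, homing and effector medians of CD4 T cells were 0.18, -0.04 and 0.07, and their cell cycle median 0.49. Csf1r-positive cells stood at -0.14 for naive genes and -0.33 for activation genes. Medians of γδ T cells (42 control and 16 NK cell-depleted cells) were 0.06 for naive, -1.05 for activation, 0.17 for homing and 0.52 for effector genes. For glycolysis and hypoxia they stood at 0.84 and for the cell cycle at -0.70. Differences between the classes were not tested, since each class came from the same 2 libraries.

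**Figure D4:**
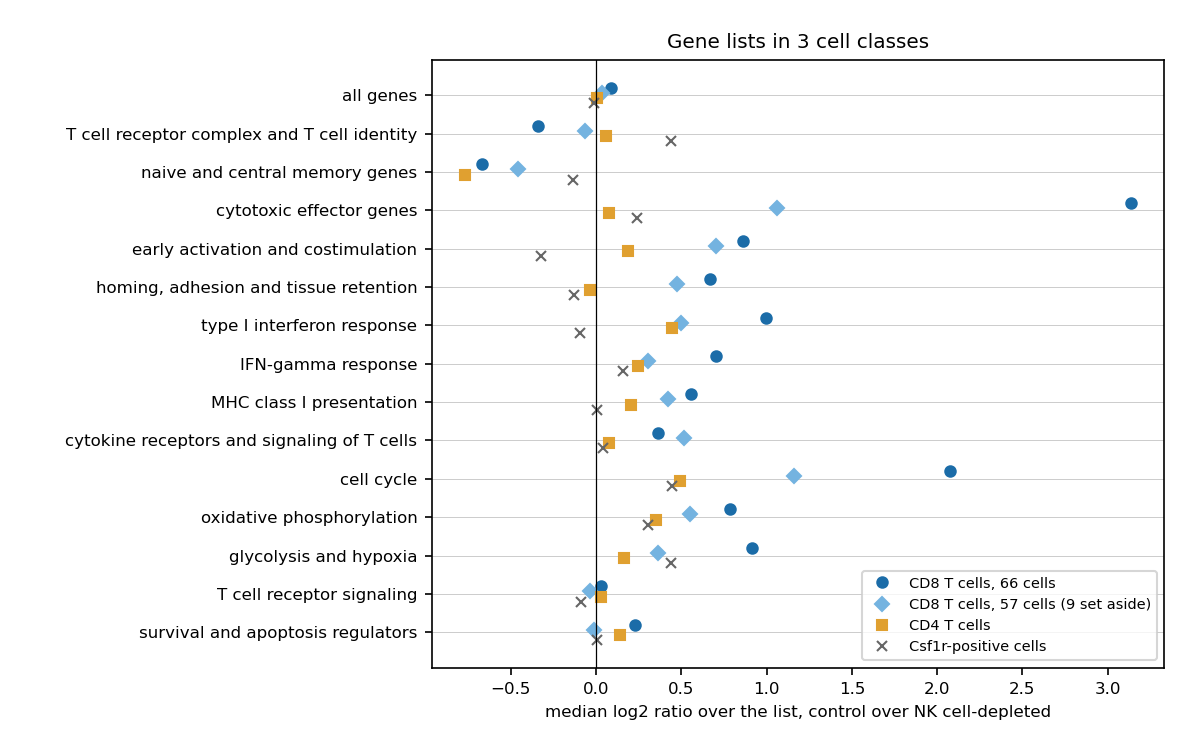
Median log2 ratio (control over NK cell-depleted, x) of the genes of each list (y) with at least 10 UMIs, in all CD8 T cells, in the reduced set, in CD4 T cells and in Csf1r-positive cells. Effector and cell cycle genes stand at 3.14 and 2.07 in all CD8 T cells and at 1.06 and 1.16 in the reduced set. Naive genes lie below 0 in both CD8 and CD4 T cells.

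Within each library, CD8 T cells were compared with CD4 T cells to show what they shared in both. CD4 T cells had a UMI of *Cd4* and of at least 1 of the 5 T cell genes, and 0 of *Cd8a*, *Cd8b1*, *Csf1r*, *Ncr1* and *Xcr1*. *Foxp3* was not barred, so the class can hold regulatory T cells, and its 10 markers of CD4 and regulatory T cells summed to 489 and 478 UMIs. The part of regulatory T cells in the ratios was not tested. Since the rule chose both classes by their genes, these ratios are a description, and they used all members, not the reduced set. In the control library 92 of 2214 genes (4.16%) were higher and 190 (8.58%) lower in CD8 T cells, and in the NK cell-depleted library 94 of 2051 (4.58%) and 236 (11.5%). Of 1794 genes counted in both, 10 were higher and 68 lower in both. Higher in both were *Nkg7* (5.26-fold in control and 7.90-fold in the NK cell-depleted library), *Tubb5* (1.88-fold and 1.77-fold) and *Hspe1* (2.01-fold and 2.15-fold). So was *Gm42418* (2.91-fold and 1.85-fold), a gene model that overlaps ribosomal RNA, whose UMIs can come from it. *Klrd1* (27.6 and 11.6), *Ctsw* (5.74 and 3.57), *Plac8* (7.58 and 17.5) and *Fam241a* (9.18 and 6.42) had ratios above 1 in both libraries but too few UMIs in 1 of them to be counted there. *Areg* (amphiregulin) had 0 UMIs in the CD8 T cells of both libraries and 51 and 45 in CD4 T cells, and *Il1rl1*, the IL-33 receptor, 3 and 1 against 29 and 30. *Ctla4* (0.137 and 0.223), *Ikzf2* (0.212 and 0.136), *Icos* (0.344 and 0.229) and *Ifi27l2a* (0.370 and 0.212) were lower in both too, as were *Dgat1* (0.209 and 0.0499) and *Pim1* (0.367 and 0.222).

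**Figure D5:**
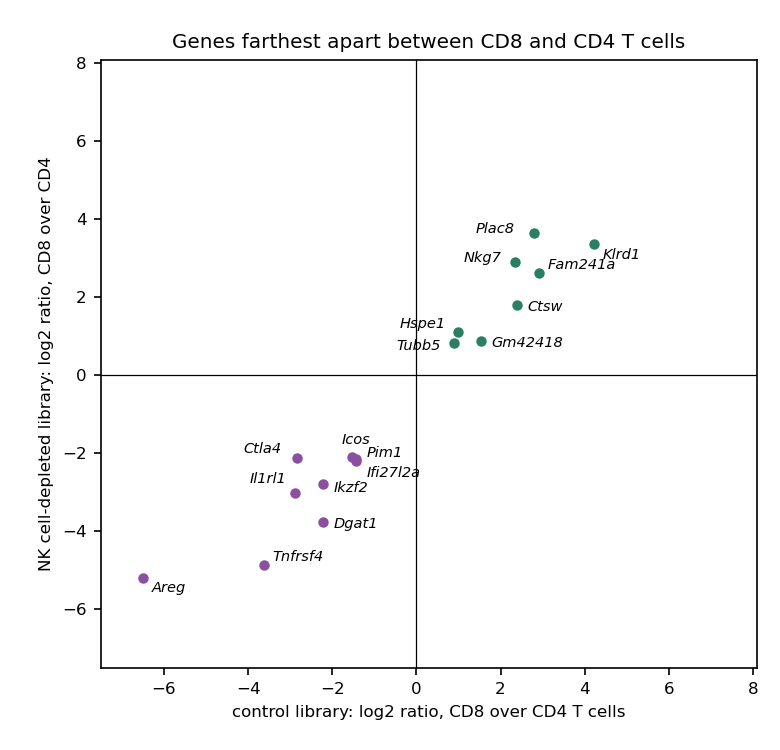
Log2 ratio of CPM in CD8 over CD4 T cells in the control library (x) and in the NK cell-depleted library (y) for the named genes, without the genes of the rule. *Nkg7* has ratios above 1 and *Areg* and *Tnfrsf4* ratios below 1 in both libraries, while *Klrd1*, *Plac8* and *Ctsw* lie above 1 on fewer UMIs.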

How the data were processed

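Cells from 2 pooled tumor samples were processed with the 10x Genomics 3′ kit. The authors made the deposited UMI counts per gene and cell with Cell Ranger (3.0.2 in the count file header, mm10 in the submitters' processing notes). The deposited normalized table was not used here. Values were raw counts, with 6115 control and 5536 NK cell-depleted barcodes as deposited.

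Cells were kept from 500 up to 15000 UMIs and from 200 up to 4000 genes if mitochondrial genes took no more than 10%. The members and gene lists were chosen with earlier results of these data known. UMIs were summed over the CD8 T cells of each library and divided by their total (CPM). Ratios carry exact conditional binomial 95% intervals and shares exact Clopper-Pearson intervals, both covering counting error only. A gene was counted with at least 20 UMIs over both sums and entered list medians with at least 10, where 0.5 UMI was added to each sum on the log2 scale. A sum of 0 was replaced by a floor of 3 counts for bounds on a fold. Genes were named when a list gene was counted as higher or lower or was among the 3 with most UMIs of its list. The 10 genes per direction whose interval lay farthest from 1, with at least 30 UMIs and no cell holding most of them, were named too, without mitochondrial and ribosomal genes. Cells were thinned with a fixed seed. Doublets were called with Scrublet (scanpy 1.11.5), which marked 0.775% and 0.688% of cells. The counting was tested on simulated data. Python 3.11.15, numpy 2.4.6, scipy 1.17.1 and pandas 2.3.3 were used. Alternatives changed the rule, the limits, the scaling, the minimum counts and the depth. Results of some listed genes are not reported here.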

Additional observations from a re-analysis of the deposited data

Results flagged for a closer look

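In the NK cell-depleted library, 9 cells met the gene rule for CD8 T cells but lay above the mitochondrial limit of 10%, compared with 4 control cells. Their share was 27.3% of the 33 NK cell-depleted cells that met the gene rule and 8.70% of the 46 control cells, while 12.2% and 9.91% of all called cells lay above the limit. These cells belong to no comparison of the report. Of the 9, 9 had a *Satb1* UMI, 8 *Ccr7* and 8 *Lef1*, 2 had *S100a6* and 2 *S100a4*, and 0 had *Ccl5*. Of the 4 control cells, 4 had *Satb1*, 1 each *Ccr7* and *Lef1*, 3 *S100a6* and 2 *S100a4*, and 0 had *Ccl5*. With a limit of 20% the counts became 220 genes higher and 115 lower, and the effector median 1.60.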

How the results depend on the processing

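No paired analysis was possible because each group held 1 library and the samples carry no replicate numbers. The numbers of genes counted as higher and lower in control (197 and 100) became 307 and 39 with median-of-ratios scaling, 42 and 33 with thinned cells, 317 and 185 without the minimum count, 81 and 55 with at least 50 UMIs, and 115 higher without cells holding 2 or more UMIs of other types. With settings chosen after the data were seen they were 96 and 60 in the reduced set, 107 and 51 without *Ccl5*-positive cells, and 68 and 43 without both. The mean of per-cell CPM gave no such counts, as it has no counting interval. The type I interferon median (0.99) became 0.50 in the reduced set and 0.35 without *Ccl5*-positive cells. The IFN-γ median (0.70) became 0.33 with thinned cells, 0.33 without cells above 7000 UMIs, 0.31 in the reduced set, 0.11 without *Ccl5*-positive cells and 0.14 without both. The T cell receptor signaling median (0.03) became -0.0146 with *Cd8b1* required, -0.0175 in the reduced set without *Ccl5*, -0.0612 with per-cell CPM, -0.0349 in the reduced set, -0.0535 without cells with UMIs of other types and -0.11 without cells with NK or γδ genes. The inhibitory receptor median (-0.17) became 1.12 with at least 1 UMI, 1.12 with at least 30, 0.0345 in the reduced set without *Ccl5*, 0.13 with median-of-ratios scaling and 0.25 with the 20% mitochondrial limit. The apoptosis median (0.23) became -0.18 without *Ccl5*-positive cells, -0.21 with thinned cells, -0.42 in the reduced set without *Ccl5*, -0.0146 in the reduced set and -0.14 without cells with UMIs of other types. With thinned cells the cell cycle median (2.07) became 0.58, oxidative phosphorylation (0.78) 0.33, MHC class I (0.56) 0.09 and activation (0.86) 2.07. The causes were not tested. The naive median stayed between -0.83 and -0.37 and the effector median between 0.30 and 3.64 in the alternatives run. Few cells and 1 library per group limit every value.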

Other observations

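*Il17a*, which encodes the cytokine IL-17A of type 17 T cells, had 28 UMIs in 4 control CD8 T cells (14, 10, 2 and 2 UMIs) and 0 in the NK cell-depleted members. These cells also had *Il17f* and *Maf*, all had a UMI of *Trac* or *Trbc1*, and 0 had *Trdc*, *Tcrg-C1* or *Zbtb16*. CD4 T cells had 13 *Il17a* UMIs in 1 control cell and 30 in 2 NK cell-depleted cells. γδ T cells had 30 in 10 of 42 control cells and 5 in 3 of 16 NK cell-depleted cells.

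Genes of cytoplasmic ribosomal proteins, which are high in naive lymphocytes, took 21.3% of UMIs in control and 27.4% in NK cell-depleted CD8 T cells. Of 82 counted, 0 were higher and 17 lower in control, with a median log2 ratio of -0.33. Of 11 counted genes encoded in mitochondria, 0 were higher and 5 lower (5.35% and 7.42% of UMIs, median -0.58).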
